A study of Mus musculus with 10 samples.

Results

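Chemokines and their receptors were examined in left ventricle RNA from 5 MLPKO and 5 cRADΔ/Δ-MLPKO mice (MLPKO-cRADKO in the sample labels). The genes were taken by symbol. All protein-coding genes named *Ccl*, *Cxcl*, *Ccr*, *Cxcr* or *Ackr* with a number, together with *Cx3cl1*, *Cx3cr1*, *Xcl1* and *Xcr1*, gave 63 of the 57185 genes with counts. Of these 63 genes, 29 had more than 10 counts in at least 6 of the 10 mice and were tested, and 34 did not and were not tested in the comparison. The 29 genes were 11 of 26 CC ligands, 7 of 13 CXC ligands, 1 of 2 CX3C or XC ligands, 7 of 18 conventional receptors and 3 of 4 atypical receptors.

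MLPKO mice are a model of dilated cardiomyopathy in which *Csrp3*, the gene of muscle LIM protein, is knocked out. In cRADΔ/Δ-MLPKO mice a floxed *Rrad* gene, which encodes the calcium channel regulator RAD, was in addition deleted by MerCreMer recombinase driven by the cardiomyocyte promoter of *Myh6*. Both groups carried the floxed gene and received 1 intraperitoneal dose of tamoxifen (100 mg/kg) at 10 weeks of age. RNA was taken from the apical part of the ventricles, by the sources 1 month later, while the labels give 16 weeks of age. The stated interval and the labelled age do not match, since 16 weeks is more than 1 month after 10 weeks. The animals were male, and each library came from 1 mouse. The comparison asked which chemokine system genes differed in RNA when RAD was removed from cardiomyocytes of the failing heart. MLPKO mice did not carry the MerCreMer transgene, so the loss of RAD and the presence of the induced recombinase cannot be told apart.

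Libraries held 33457406 to 49965101 counts, with a median of 43738141. A normalized count is a raw count divided by the effective library size (TMM) relative to its mean over the mice. A positive log2 fold change is a higher value in cRADΔ/Δ-MLPKO, given with a standard error (SE). For edgeR the SE was worked out from the fold change and the F statistic of its test. *Rrad* had between 5774 and 11644 normalized counts in MLPKO and between 5562 and 8361 in cRADΔ/Δ-MLPKO. Its log2 fold change was −0.38 (SE 0.20, edgeR adjusted p = 0.290), so its count per gene did not separate the labels. *Csrp3*, knocked out in both groups and so no check of the labels, was counted in all 10 mice. It had 41726 to 134795 normalized counts in MLPKO and 28553 to 48663 in cRADΔ/Δ-MLPKO, which overlapped, with a log2 fold change of −1.08 (SE 0.29, edgeR adjusted p = 0.0667). The cardiomyocyte gene *Myh6* had between 1050349 and 1662754 normalized counts over the 10 mice, and its level marks the libraries as heart muscle. MLPKO mouse 2 stood apart on the first principal component of all genes tested (−45.27, against −19.01 to 18.91 in the other mice), and values that rest on it are given with and without it. In bulk RNA, fewer cells of a type and less RNA per cell cannot be told apart.

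Chemokines are small secreted proteins that guide leukocytes, and are classed by the spacing of their first cysteines as CC, CXC, CX3C or XC. They act on receptors with 7 transmembrane helices that couple to inhibitory G proteins, whereas atypical receptors bind chemokines without this coupling and remove them. In the heart, CC ligands and CCR2 are known for recruiting monocytes that become macrophages, whereas CXCL12 is made in quantity by stromal and vascular cells.

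The cysteines that give the families their names can be read in the coding sequences. Stretches of 48 coding bases are printed for the ligands on which the results turn, from the GENCODE M39 annotation of GRCm39, with the codons of the family cysteines in capitals. They are *Ccl8* (chr11:82006870-82006917, plus strand), *Ccl9* (chr11:83466722-83466769, minus strand), *Ccl6* (chr11:83480182-83480229, minus strand), *Cxcl5* (chr5:90907574-90907621, plus strand), *Cxcl12* (chr6:117148457-117148504, plus strand) and *Cx3cl1* (chr8:95504667-95504714, plus strand), each within 1 exon.
Ccl8: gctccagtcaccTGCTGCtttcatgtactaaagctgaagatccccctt
Ccl9: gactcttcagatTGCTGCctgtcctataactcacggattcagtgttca
Ccl6: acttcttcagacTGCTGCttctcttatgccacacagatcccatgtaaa
Cxcl5: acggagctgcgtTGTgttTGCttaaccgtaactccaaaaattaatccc
Cxcl12: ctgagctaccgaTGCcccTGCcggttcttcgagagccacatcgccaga
Cx3cl1: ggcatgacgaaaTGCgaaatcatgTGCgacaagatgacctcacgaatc
The cysteine codons adjoin in the 3 CC ligands, are 1 codon apart in *Cxcl5* and *Cxcl12*, and 3 codons apart in *Cx3cl1*.

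The receptors carry a conserved aspartate-arginine-tyrosine motif at the inner end of the third helix, where the G protein is engaged, and the codons at the place of this motif are in capitals for 3 conventional and 3 atypical receptors. The stretches are *Ccr2* (chr9:123906157-123906204, plus strand), *Cxcr4* (chr1:128517222-128517269, minus strand), *Cxcr6* (chr9:123639391-123639438, plus strand), *Ackr2* (chr9:121738032-121738079, plus strand), *Ackr3* (chr1:90141951-90141998, plus strand) and *Ackr4* (chr9:103976505-103976552, minus strand).
Ccr2: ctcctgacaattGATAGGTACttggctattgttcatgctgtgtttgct
Cxcr4: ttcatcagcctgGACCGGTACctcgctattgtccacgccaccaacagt
Cxcr6: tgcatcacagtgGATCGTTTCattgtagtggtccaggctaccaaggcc
Ackr2: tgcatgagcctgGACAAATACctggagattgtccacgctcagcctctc
Ackr3: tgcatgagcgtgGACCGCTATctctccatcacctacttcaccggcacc
Ackr4: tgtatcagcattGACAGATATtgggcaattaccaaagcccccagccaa
The middle codon stands for arginine in each of these genes but *Ackr2*, and the last codon stands for tyrosine in each but *Cxcr6*. *Ccl6* and *Ccl9* had 70.7% of their aligned coding bases in common, with no identical run over 23 bases.

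None of the 29 genes passed the main test, that of edgeR (quasi-likelihood F-test, n = 5 mice per group, p adjusted over 13453 genes by the method of Benjamini and Hochberg and called under 0.05), against 2.74% of all genes tested. Without adjustment 8 of the 29 had a p under 0.05 (all genes 21.6%), of which 6 were higher in cRADΔ/Δ-MLPKO (all genes 10.1%) and 2 were lower (all genes 11.5%). DESeq2, the tool of the authors' methods, gave an adjusted p to 25 of the 29 genes and called 4 of them, among them *Ccl8*, *Ccl9* and *Ccr2*, all higher in cRADΔ/Δ-MLPKO (all genes 3.96% in that direction), and limma-voom called 0 (all genes 2.53%; 7 of the 29 at an unadjusted p under 0.05). The log2 fold change was above 0 for 22 and below 0 for 7 of the 29 genes, with a median of 0.34, beside 52.1% above 0 and a median of 0.01 over all genes. These counts describe the genes that passed the filter. In 23 of the 29 genes all 10 mice had more than 10 counts, and in the other 6 some mice did not.

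**Figure D1:**
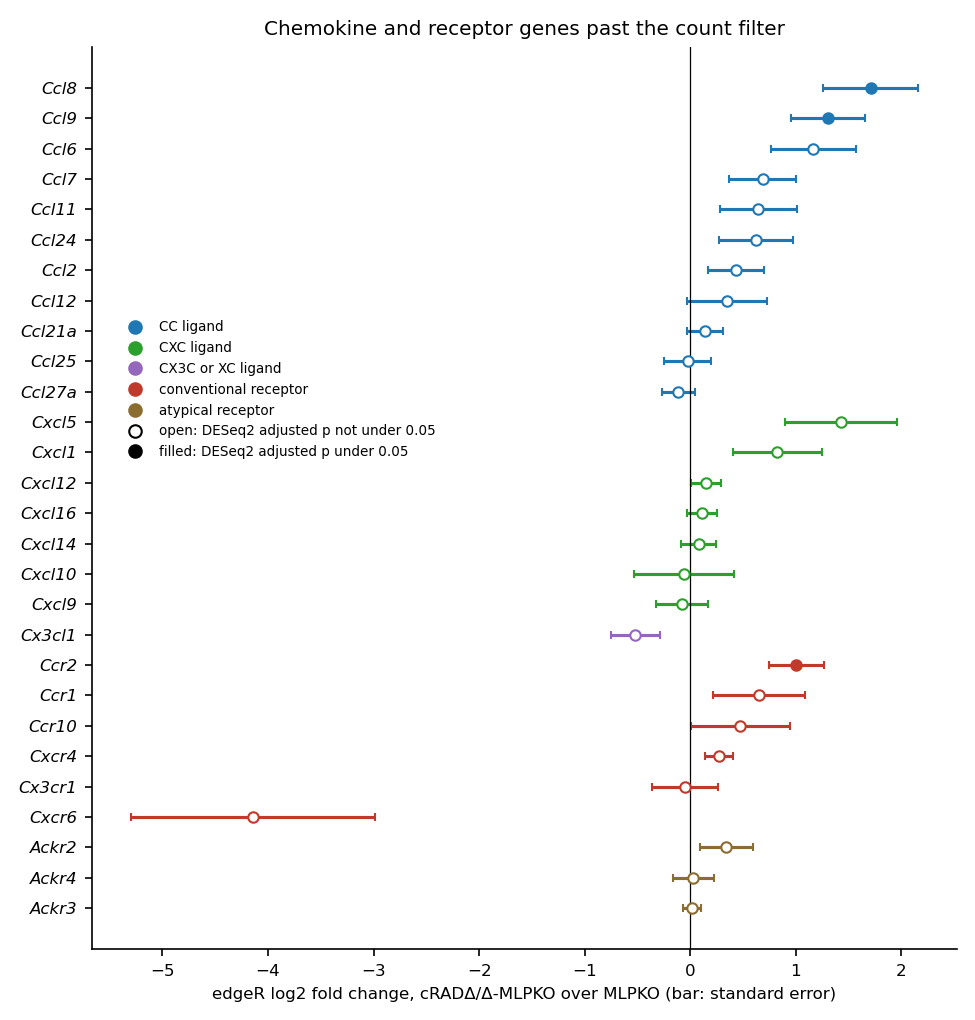
Log2 fold change of cRADΔ/Δ-MLPKO over MLPKO for 28 of the 29 genes past the count filter (x axis, edgeR), with bars of 1 standard error, grouped and coloured by class. Filled points mark *Ccl8*, *Ccl9* and *Ccr2*, which had a DESeq2 adjusted p under 0.05, and *Cxcr6* lies far to the left at −4.14 with the widest bar.

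Among CC ligands, *Ccl8*, *Ccl9* and *Ccl6* had the largest log2 fold changes, each above 1, and none had an edgeR adjusted p under 0.05 with all 10 mice. *Ccl8* encodes a monocyte chemoattractant protein and lies at 82006007 to 82007625 on chromosome 11. Its normalized count was 22.9, 15.7, 29.4, 11.02 and 12.8 in MLPKO mice 1 to 5, and 19.8, 55.8, 92.6, 35.0 and 101 in cRADΔ/Δ-MLPKO mice 1 to 5. In 4 of 5 cRADΔ/Δ-MLPKO mice the value was above every MLPKO mouse, and mouse 1 lay within their range. The means were 18.4 ± 7.65 (SD, n = 5) and 60.8 ± 35.4 (SD, n = 5), 3.31 times as high, with a log2 fold change of 1.71 (SE 0.45, edgeR adjusted p = 0.0609). The DESeq2 adjusted p was 0.00533. With cRADΔ/Δ-MLPKO mouse 1 left out, the edgeR adjusted p was 0.0392, a fit that called 1.87% of all genes, and over the other mice left out it ranged up to 0.143.

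*Ccl9* and *Ccl6*, neighbours on chromosome 11 that encode CC ligands of myeloid cells, are given by mouse because of their values. *Ccl9* had normalized counts of 178, 91.7, 104, 194 and 155 in MLPKO and 286, 148, 671, 376 and 310 in cRADΔ/Δ-MLPKO, with means of 145 ± 44.9 and 358 ± 194 (SD, n = 5 each). Its log2 fold change was 1.30 (SE 0.35, edgeR adjusted p = 0.0643), and its DESeq2 adjusted p was 0.00307. *Ccl6* had normalized counts of 341, 99.6, 178, 380 and 200 in MLPKO and 594, 239, 1021, 403 and 443 in cRADΔ/Δ-MLPKO, a log2 fold change of 1.17 (SE 0.40, edgeR adjusted p = 0.121). For both genes cRADΔ/Δ-MLPKO mouse 3 was the highest of all mice and mouse 2 was the only one of its group within the MLPKO range. Without mouse 3 the log2 fold changes were 0.96 for *Ccl9* and 0.81 for *Ccl6*. *Ccl9* passed the edgeR test without MLPKO mouse 4 (adjusted p = 0.0484, all genes 6.14%) and without cRADΔ/Δ-MLPKO mouse 2 (adjusted p = 0.0449, all genes 1.06%), and it did not pass in the other 8 fits, with an adjusted p up to 0.126.

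*Ccl2*, the classic ligand of CCR2, did not pass the test. Its normalized count was 139, 64.2, 53.0, 57.3 and 78.4 in MLPKO and 89.1, 108, 137, 114 and 82.3 in cRADΔ/Δ-MLPKO. All 5 cRADΔ/Δ-MLPKO mice lay above 4 of the 5 MLPKO mice, and MLPKO mouse 1 had the highest value of all. The log2 fold change was 0.43 (SE 0.27, edgeR adjusted p = 0.377), and without MLPKO mouse 1 it was 0.74 (adjusted p = 0.101). With any other mouse left out it was between 0.32 and 0.52. The other monocyte chemoattractants beside it on chromosome 11, *Ccl7* and *Ccl12*, had log2 fold changes of 0.69 (adjusted p = 0.237) and 0.34 (adjusted p = 0.652). The eotaxins *Ccl11* and *Ccl24*, which attract eosinophils through CCR3, had 0.64 (adjusted p = 0.332) and 0.62 (adjusted p = 0.335). Without MLPKO mouse 4 *Ccl24* had 1.02 (adjusted p = 0.0610), in a fit that called 6.14% of all genes. With any other mouse left out *Ccl24* had between 0.44 and 0.75 (adjusted p from 0.279 to 0.478). The 7 CC ligands of chromosome 11 that were tested, *Ccl2*, *Ccl6*, *Ccl7*, *Ccl8*, *Ccl9*, *Ccl11* and *Ccl12*, all had log2 fold changes above 0, between 0.34 and 1.71, with a median of 0.69. In sequence, *Ccl8* and *Ccl12* had 70.5% of aligned coding bases in common.

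The remaining CC ligands are made at steady state and lay near 0. *Ccl21a*, the ligand of CCR7 made by lymphatic endothelium, had normalized counts of 592, 652, 744, 690 and 606 in MLPKO and 982, 772, 838, 458 and 574 in cRADΔ/Δ-MLPKO. The cRADΔ/Δ-MLPKO mice enclosed the whole MLPKO range, and the log2 fold change was 0.14 (SE 0.17, edgeR adjusted p = 0.696). Its 4 near-copies *Ccl21b*, *Ccl21d*, *Ccl21e* and *Ccl21f* had 98% of aligned coding bases in common with it and no count in any mouse, so the placing of reads among the copies is uncertain. *Ccl27a*, a ligand of CCR10, had a log2 fold change of −0.12 (adjusted p = 0.721), with a near-copy, *Ccl27b*, at 2 counts or fewer. *Ccl25*, a ligand of CCR9, had −0.02 (adjusted p = 0.966). Exons of *Ccl25* share 604 bases with *Elavl1* on the other strand, and those of *Ccl27a* share 694 bases with a long noncoding RNA gene on the other strand. *Ccl5*, which attracts T cells, did not pass the filter, with raw counts of 11, 6, 12, 4 and 24 in MLPKO and 8, 6, 10, 4 and 12 in cRADΔ/Δ-MLPKO.

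**Figure D2:**
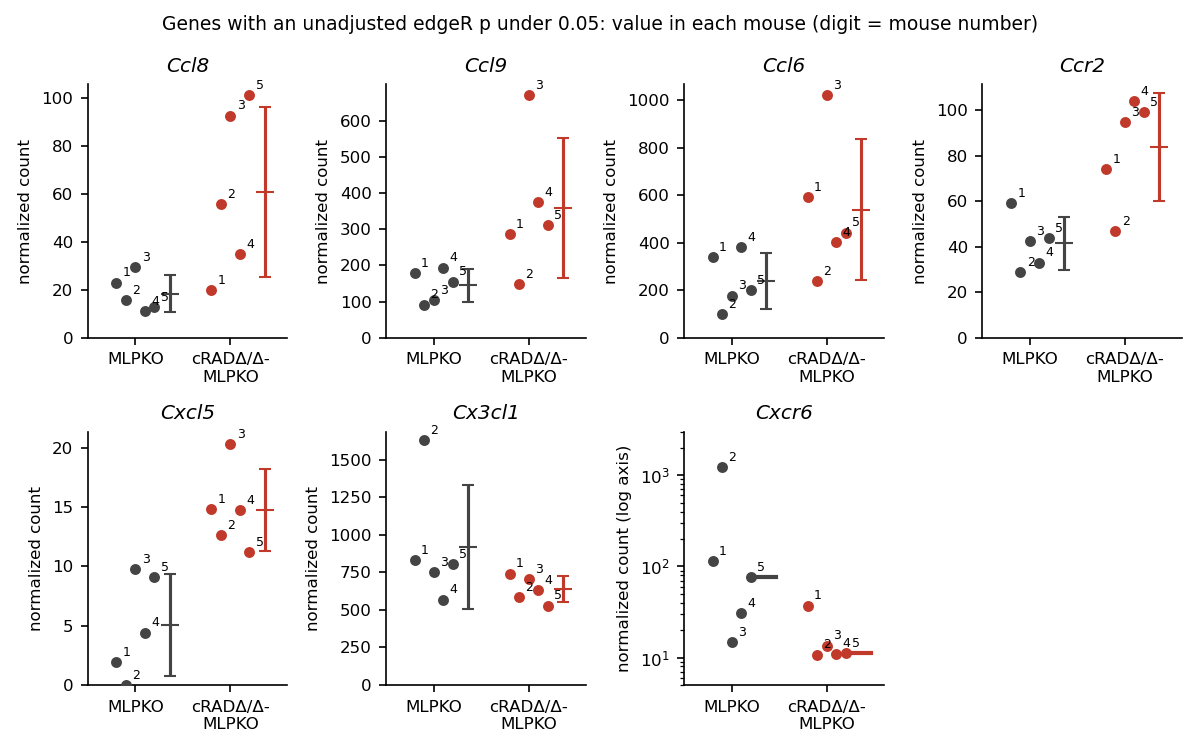
Normalized count in each mouse (points with the mouse number) of 7 of the 8 genes with an unadjusted edgeR p under 0.05, with mean and SD beside the points, on a linear axis from 0 except for *Cxcr6*, which is on a log axis with the median. The genotypes overlap in every gene shown but *Cxcl5*, and MLPKO mouse 2 is highest for *Cx3cl1* and *Cxcr6*.

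CXC ligands that attract neutrophils had higher means in cRADΔ/Δ-MLPKO at very low counts, and none passed the test. *Cxcl5*, a ligand of CXCR2, had normalized counts of 1.91, 0, 9.79, 4.41 and 9.12 in MLPKO and 14.8, 12.6, 20.3, 14.7 and 11.2 in cRADΔ/Δ-MLPKO. It was the only one of the 29 genes whose genotypes did not overlap (all genes 6.62%). On the log2 scale the difference was 1.43 (SE 0.53, edgeR adjusted p = 0.145), and DESeq2 gave no adjusted p. *Cxcl5* had more than 10 counts in 1 MLPKO mouse and 5 cRADΔ/Δ-MLPKO mice, so it passed the filter through the group in which it was high, with at most 18 counts in a mouse. Its exons share 523 bases with the long noncoding RNA gene *Gm72413* on the other strand, and reads of the 2 genes cannot be told apart here. *Cxcl1*, which acts on the same receptor, had a log2 fold change of 0.82 (adjusted p = 0.288), and the receptor *Cxcr2* had 14 counts at most.

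*Cxcl12*, the stromal ligand of CXCR4 and ACKR3, was the most abundant of the 63 genes per length. Its normalized count was 9366, 17777, 12220, 11478 and 10536 in MLPKO and 14004, 12205, 14923, 13985 and 12939 in cRADΔ/Δ-MLPKO. Apart from MLPKO mouse 2, which was the highest of all, the MLPKO mice lay below or close to the lowest cRADΔ/Δ-MLPKO mouse. The log2 fold change was 0.15 (SE 0.15, edgeR adjusted p = 0.600), and 0.32 without MLPKO mouse 2 (adjusted p = 0.0691).

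*Cxcl14*, a constitutive chemokine, had normalized counts of 634, 579, 997, 664 and 846 in MLPKO and 787, 942, 689, 608 and 909 in cRADΔ/Δ-MLPKO, with full overlap and a log2 fold change of 0.08 (SE 0.16, edgeR adjusted p = 0.827). *Cxcl16*, the membrane-bound ligand of CXCR6, had 319, 324, 291, 212 and 288 in MLPKO and 327, 287, 388, 249 and 299 in cRADΔ/Δ-MLPKO, also with overlap and a log2 fold change of 0.11 (SE 0.14, edgeR adjusted p = 0.704). Exons of *Cxcl16* share 2213 bases with *Med11* and 2132 bases with *Zmynd15* on the other strand. Whether strand was used in counting was not stated, so reads of these genes cannot be told apart here. The interferon-induced *Cxcl9* and *Cxcl10*, ligands of CXCR3, had log2 fold changes of −0.08 (adjusted p = 0.897) and −0.06 (adjusted p = 0.959), and *Cxcr3* had 6 counts at most.

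*Cx3cl1* encodes fractalkine, a membrane-bound ligand of endothelium for CX3CR1, and was the only ligand with a lower mean in cRADΔ/Δ-MLPKO and an unadjusted p under 0.05. Its normalized count was 833, 1630, 751, 568 and 806 in MLPKO and 742, 583, 707, 632 and 529 in cRADΔ/Δ-MLPKO. MLPKO mouse 2 was far above the others, and only MLPKO mouse 4 fell among the cRADΔ/Δ-MLPKO values. The means were 918 ± 411 and 639 ± 87.3 (SD, n = 5 each), with a log2 fold change of −0.52 (SE 0.23, edgeR adjusted p = 0.225). Without MLPKO mouse 2 it was −0.21 (adjusted p = 0.364). Exons of *Cx3cl1* share 427 bases with the long noncoding RNA gene *1700121C10Rik* on the other strand. *Cx3cr1*, the receptor on monocytes and resident macrophages, had 386, 320, 157, 254 and 347 in MLPKO and 414, 178, 369, 138 and 320 in cRADΔ/Δ-MLPKO, with full overlap and a log2 fold change of −0.05 (SE 0.31, edgeR adjusted p = 0.951).

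Among conventional receptors, *Ccr2* had a higher mean in cRADΔ/Δ-MLPKO. *Ccr2*, the receptor that brings classical monocytes into tissue, had normalized counts of 59.2, 28.8, 42.4, 33.1 and 43.8 in MLPKO and 74.2, 46.8, 94.9, 104 and 99.1 in cRADΔ/Δ-MLPKO. In 4 of 5 cRADΔ/Δ-MLPKO mice it was above every MLPKO mouse, and mouse 2 was within their range. The means were 41.5 ± 11.8 and 83.8 ± 23.6 (SD, n = 5 each), 2.02 times as high, with a log2 fold change of 1.00 (SE 0.26, edgeR adjusted p = 0.0609) and a DESeq2 adjusted p of 0.00828. Without cRADΔ/Δ-MLPKO mouse 2, the edgeR adjusted p was 0.0470 (all genes 1.06%), and *Ccr2* did not pass in the other 9 fits that left out 1 mouse, with an adjusted p up to 0.139.

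*Cxcr4*, the signalling receptor of CXCL12, had normalized counts of 235, 229, 261, 260 and 297 in MLPKO and 257, 270, 403, 278 and 342 in cRADΔ/Δ-MLPKO. The highest values belonged to cRADΔ/Δ-MLPKO mice 3 and 5 and the others overlapped, with a log2 fold change of 0.27 (SE 0.14, edgeR adjusted p = 0.276). Without cRADΔ/Δ-MLPKO mouse 3 it was 0.17 (adjusted p = 0.495). *Ccr1*, a myeloid receptor known to bind CCL6 and CCL9, had 0.65 (adjusted p = 0.419), with 0.42 left without MLPKO mouse 2 (adjusted p = 0.560) and 0.30 without cRADΔ/Δ-MLPKO mouse 3 (adjusted p = 0.748). *Ccr10*, a receptor of CCL27, had 0.47 (adjusted p = 0.608) at means of 11.9 and 17.1 normalized counts.

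*Cxcr6*, the receptor of CXCL16 on T and NK cells, had the lowest log2 fold change of the 29 genes, and most of it came from 1 library. Its normalized count was 114, 1222, 14.7, 30.9 and 76.6 in MLPKO and 37.1, 10.8, 13.6, 11.1 and 11.2 in cRADΔ/Δ-MLPKO. MLPKO mouse 2 held 933 of the 1260 raw counts over the 10 mice. The cRADΔ/Δ-MLPKO mice other than mouse 1 lay below every MLPKO mouse. In the fit the log2 fold change was −4.14 (SE 1.16, edgeR adjusted p = 0.0710), and −1.85 without MLPKO mouse 2 (adjusted p = 0.104). Without MLPKO mouse 4 *Cxcr6* passed the test (−4.43, adjusted p = 0.0405), in a fit that kept MLPKO mouse 2 and called 6.14% of all genes. It passed in no other fit that left out 1 mouse, with an adjusted p up to 0.157. DESeq2 gave no adjusted p, and the limma-voom adjusted p was 0.327. The T cell genes *Cd3d*, *Cd3e* and *Cd3g* had at most 18.7 normalized counts in any mouse, and each of the 5 NK genes at most 19.1. The whole list of 7 T cell genes was highest in MLPKO mouse 2, with a sum of 86.5 against 37.5 to 78.5 in the other mice, whereas the list of 5 NK genes was lowest in that mouse, with 7.86 against 11.1 to 49.7. *Cxcr6* lies inside *Fyco1* on the other strand with no exon in common, and *Fyco1* had 21122 normalized counts in MLPKO mouse 2, within its range of 19917 to 24045 over MLPKO mice.

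None of the atypical receptors passed the test. *Ackr3*, which removes CXCL12, had normalized counts of 3434, 3443, 4455, 4001 and 4312 in MLPKO and 3797, 4184, 3614, 4211 and 4063 in cRADΔ/Δ-MLPKO. All cRADΔ/Δ-MLPKO values fell inside the MLPKO range, with a log2 fold change of 0.02 and the smallest standard error of the 29 genes (0.08, edgeR adjusted p = 0.937). *Ackr2*, which scavenges inflammatory CC ligands, had a log2 fold change of 0.34 (adjusted p = 0.473), and 0.60 without MLPKO mouse 2 (adjusted p = 0.126), which had the highest value of all at 176. *Ackr4*, which removes CCL21, had 0.03 (adjusted p = 0.953), and shares 1663 exon bases with *Acad11* on the other strand. *Ackr1*, the Duffy antigen of venules and red cells, did not pass the filter, with raw counts of 2, 4, 5, 0 and 2 in MLPKO and 2, 2, 12, 4 and 4 in cRADΔ/Δ-MLPKO.

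**Figure D3:**
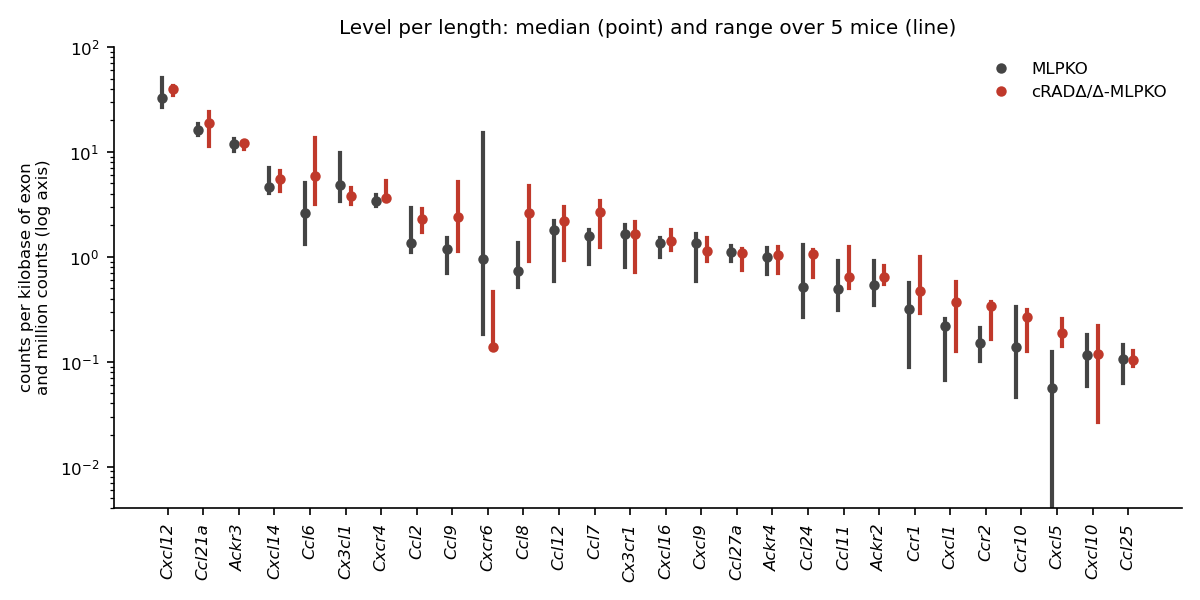
Level per length of 28 of the 29 genes in counts per kilobase of exon scaled to library size (RPKM, log axis), in order of the mean over 10 mice, with the median (point) and range (line) of 5 mice per genotype. *Cxcl12* is highest, *Ccl25* is lowest with the length of all exons joined (with the longest transcript as length its mean is above those of 6 other genes shown), *Cxcr6* spans the widest range in MLPKO, and the MLPKO line of *Cxcl5* runs off the axis because 1 mouse had no count.

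Levels between genes were compared in RPKM, the count per kilobase of exon scaled to library size. *Cxcl12* had 37.2 ± 6.86 (SD, n = 10 mice), *Ccl21a* 17.1 ± 3.70 and *Ackr3* 11.7 ± 1.07 RPKM. The lowest *Cxcl12* mouse (26.9) was above the highest *Ccl21a* mouse (24.2), whereas *Ccl21a* and *Ackr3* overlapped. *Cxcl14* (5.36 ± 1.06), *Ccl6* (5.15 ± 3.50), *Cx3cl1* (4.70 ± 1.91) and *Cxcr4* (3.73 ± 0.696) followed and overlapped each other. *Cxcl12* made up 43.5% ± 5.23 (SD, n = 10 mice) of the summed level of all ligand genes, whether past the filter or not. *Ccl21a* made up 20% ± 3.54, *Ccl6* 5.78% ± 3.00 and *Ccl9* 2.18% ± 1.17. The genes with the lowest adjusted p were rare by comparison, with *Ccl8* at 1.84 ± 1.53 and *Ccr2* at 0.222 ± 0.101. The share of *Ccl6* among ligands was 4.18% ± 2.21 in MLPKO and 7.38% ± 3.00 in cRADΔ/Δ-MLPKO, and that of *Ccl9* was 1.46% ± 0.543 and 2.89% ± 1.23 (SD, n = 5 each), given as values with no test.

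Macrophage markers were higher in mean beside the CC ligands and receptors. Of 10 macrophage genes 9 had a log2 fold change above 0, with a median of 0.48, and 0 passed the edgeR test, whereas DESeq2 called 5 (*Adgre1*, *Csf1r*, *C1qc*, *Lyz2* and *Mpeg1*; all genes 10.0% in either direction). All 8 genes of resident macrophages had a log2 fold change above 0 (median 0.74), with 0 called by edgeR and 4 by DESeq2 (*Folr2*, *Cd163*, *Cbr2* and *Vsig4*). The summed normalized count of the 10 macrophage genes was 8218 to 11628 in MLPKO and 9790 to 20950 in cRADΔ/Δ-MLPKO, where mouse 3 was highest and mouse 2 lowest, the same mice as for *Ccl6* and *Ccl9*. In that group *Ccl8* was instead highest in mouse 5 and lowest in mouse 1, and *Ccr2* was highest in mouse 4 and lowest in mouse 2. Per 1000 counts of that sum, the ratio of the group means of cRADΔ/Δ-MLPKO over MLPKO was 2.14 for *Ccl8*, 1.58 for *Ccl9*, 1.48 for *Ccl6* and 1.34 for *Ccr2*, and the ranges of the genotypes overlapped for each of them. The ratio for the macrophage sum itself was 1.504. The part of macrophage number in the values of the chemokine genes was not tested.

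Markers of the other leukocytes, of endothelium and of cardiomyocytes were summed by list. The 6 neutrophil genes summed to 52.9 to 85.0 normalized counts in MLPKO and 61.2 to 193 in cRADΔ/Δ-MLPKO, with *Ly6g* at 0 in all MLPKO mice and at 3.74 at most in cRADΔ/Δ-MLPKO. The 5 NK genes summed to 7.86 to 49.7 in MLPKO and 11.1 to 31.8 in cRADΔ/Δ-MLPKO. Of the monocyte genes, *Ly6c2* had 30.9 to 63.8 and 21.6 to 69.2, with a log2 fold change of 0.0058 (edgeR adjusted p = 0.993), beside the higher mean of *Ccr2*. *Chil3* had 13.6 normalized counts at most. The 6 monocyte genes together summed to 4875 to 7644 in MLPKO and 3244 to 5248 in cRADΔ/Δ-MLPKO, and the 5 dendritic cell genes to 707.8 to 876 and 835 to 930. The B cell genes summed to 67.3 to 231 in MLPKO and 85.1 to 306 in cRADΔ/Δ-MLPKO. The sums of the 6 endothelial genes did not overlap between the genotypes (28064 to 33053 and 33101 to 38123). Nor did those of the 6 cardiomyocyte genes (2312606 to 2714524 and 1848504 to 2268448). By gene, only *Kdr* and *Tnnt2*, 1 in each list, did not overlap (all genes 6.62%), and *Myh6*, which dominates the cardiomyocyte sum, did. Of the endothelial genes 5 had a log2 fold change above 0 and 1 below 0 (*Vwf*), and edgeR called 0. Of the cardiomyocyte genes 5 were below 0 and 1 above (*Tnni3*), and edgeR called 1 (*Tnnt2*, all genes 2.74%). The part of these lists in the values of *Cxcl12*, *Cx3cl1* and the other genes was not tested.

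**Figure D4:**
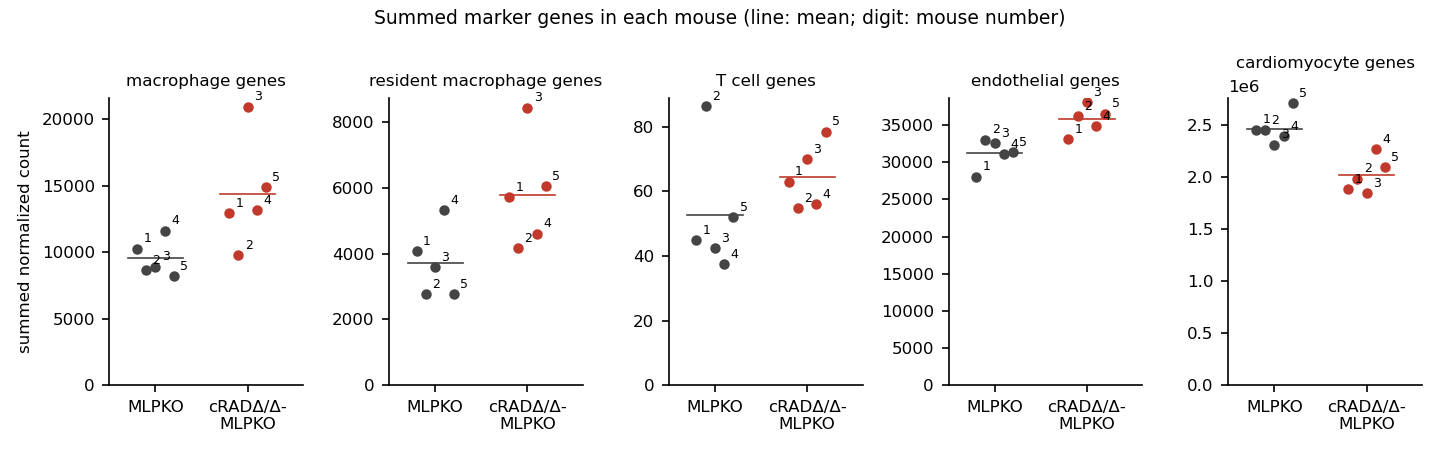
Summed normalized count of 5 marker lists in each mouse (points with the mouse number, line at the mean of 5 mice), on axes from 0. Macrophage sums overlap between the genotypes with cRADΔ/Δ-MLPKO mouse 3 highest at 20950, and T cell sums reach 86.5 at most. Endothelial and cardiomyocyte sums do not overlap, though in each of these lists all genes but 1 do.

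Genes that act with chemokines were examined by list. Among 10 chemokine system genes with other names, which include the platelet chemokines *Pf4* and *Ppbp* and the receptor *Ccrl2*, 7 had a log2 fold change above 0 and 3 below 0 (all genes 52.1% above 0) and 0 passed the edgeR test (all genes 2.74%). DESeq2, which called 10.0% of all genes, called *Pf4*, also known as *Cxcl4*, with a log2 fold change of 0.66 (edgeR adjusted p = 0.103). Of 15 genes of G proteins and receptor regulation, 13 had a log2 fold change above 0 and 0 passed the test (DESeq2 called *Rgs2* at 0.92 and *Grk5* at −0.43), and of 33 genes of leukocyte migration signalling, 22 were above 0 and 0 passed by either tool. Of 18 genes of leukocyte adhesion, 15 were above 0 and 0 passed the edgeR test. DESeq2 called 4 of these, the integrin chains *Itgam* and *Itgb2*, the P-selectin ligand *Selplg* and the endothelial selectin *Sele*, with log2 fold changes of 0.89, 0.77, 0.72 and 0.88. Of 13 genes of chemokine-cleaving proteases and glycosaminoglycan carriers 8 were above 0, and *Adam10* rose. *Adam10* encodes the protease that sheds CX3CL1 and CXCL16 from the membrane, and had between 2236 and 2312 normalized counts in MLPKO and between 2503 and 2801 in cRADΔ/Δ-MLPKO, a log2 fold change of 0.22 (SE 0.05, edgeR adjusted p = 0.0402). The call was lost with the mouse number as a block (adjusted p = 0.0876), without the count filter (0.0633), and without any 1 mouse other than MLPKO mouse 4, where the adjusted p ranged from 0.0504 to 0.0948 (without MLPKO mouse 4, 0.0422). The lists were given no test of their own.

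The 34 genes that did not pass the filter had low counts. No count was found in any mouse for 6 of them (*Ccl20*, *Ccl21b*, *Ccl21d*, *Ccl21e*, *Ccl21f* and *Cxcl15*). Of the 34 genes, 11, these 6 included, had 3 counts or fewer in every mouse. A count of 0 does not show that a gene was absent, and for the *Ccl21* copies the placing of reads is uncertain. The highest count was 37, for the B cell receptor *Cxcr5* (4 to 37 counts over the 10 mice), followed by *Ccr7* (2 to 28). Several are the receptors of ligands described above. *Ccr3*, for the eotaxins, had 4 counts at most, *Ccr8* 2, *Ccr9* 10 and *Xcr1* 10. The inflammatory ligands *Ccl3* and *Ccl4* had at most 5 and 13 counts, and *Cxcl2* and *Cxcl3* at most 4. In a fit without a filter on low counts, edgeR called 0 of the 57 genes with a count (all genes 1.67%), 10 of which had an unadjusted p under 0.05 (all genes 16.9%), 1 of them below the filter. The lowest adjusted p among the genes below the filter was 0.272 (*Xcl1*).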

How the data were processed

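RNA of 10 left ventricles, 1 library per mouse, was enriched for polyadenylated transcripts and sequenced. The authors checked reads with FastQC, used STAR for alignment to GRCm39 and featureCounts for counting by gene, per the labels and the paper's methods, and deposited raw counts without normalization. Versions and the settings for pairs, strand and shared reads were not given in the sources used here. A gene's reads therefore cannot be told from those of an overlapping gene.

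Genes were named by GENCODE M39 (GRCm39), which held 56629 of 57185 genes with counts. In the deposited counts, 73.7% or more of the values from 1 to 20 were even in every library, so 1 count may not be 1 sequenced fragment, and halved counts were tried, an alternative chosen after seeing the data. As in the paper's methods, a gene needed over 10 counts in 6 or more of the 10 mice, and predicted genes (Gm, Rik) were dropped, which left 13453. Genotypes were compared by the quasi-likelihood test of edgeR 4.0.16 with TMM in R 4.3.3, checked on simulated data, with DESeq2 1.42.0 and limma-voom (limma 3.58.1) as alternatives. Other alternatives were RLE and upper quartile size factors, no filter, filterByExpr, Gm and Rik genes kept, the mouse number as a block, the longest transcript as length and each mouse left out.

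The genes and lists were chosen with earlier results of these data known, so no list was tested. Values by mouse are given for genes with an edgeR adjusted p under 0.05 or no overlap, and for a fixed list, and *Ccl6* and *Ccl9* were added after their values were seen. Mouse numbers belong to different animals. The values of 1 gene of the 29 are not reported here, though counts over the genes include it.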

Additional observations from a re-analysis of the deposited data

Results flagged for a closer look

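In 4 of 58 groups of 5 mice (29 genes in 2 genotypes), 1 mouse lay far from the others by Dixon's test, where chance gives about 2.9. MLPKO mouse 2 had 1222 normalized counts of *Cxcr6*, against 14.7 to 114 in the other MLPKO mice. The same mouse had 1630 normalized counts of *Cx3cl1*, against 568 to 833. cRADΔ/Δ-MLPKO mouse 1 had 37.1 normalized counts of *Cxcr6*, against 10.8 to 13.6 in the other cRADΔ/Δ-MLPKO mice. cRADΔ/Δ-MLPKO mouse 2 had 37.8 normalized counts of *Ccl24*, against 61.9 to 68.1.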

How the results depend on the processing

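Over 19 alternatives, the 29 genes gave 547 values (4 genes without an adjusted p from DESeq2 left out there), of which 514 kept their direction and their side of the threshold, 10 passed it and 23 changed sign. Where a value below changed, the cause was not tested. DESeq2 called 4 of the genes, all higher (edgeR 0), and 8 genes of the signalling and adhesion lists (edgeR 1, and 0 without a filter and with the replicate block). It called 1298 of all genes against 369. With 1 mouse left out, between 0 and 3 of the genes were called higher and between 0 and 1 lower, and between 0 and 6 genes of the lists. Over all genes, between 50 (without cRADΔ/Δ-MLPKO mouse 5) and 826 (without MLPKO mouse 4) were called. The changes of sign belonged to 6 genes near 0. The log2 fold change of *Ccl25* was 0.004 with upper quartile size factors, 0.006 with the replicate block and 0.034 with limma-voom, that of *Cxcl10* was 0.044 with counts halved, and that of *Ackr4* was −0.014 with limma-voom. With 1 mouse left out they ranged from −0.169 to 0.101 for *Ccl25*, −0.404 to 0.170 for *Cxcl10*, −0.242 to 0.070 for *Cxcl9*, −0.029 to 0.072 for *Ackr3*, −0.073 to 0.135 for *Ackr4* and −0.221 to 0.134 for *Cx3cr1*. The share of *Cxcl12* in the ligand level was 49.4% with the longest transcript as length. The same mouse number marks different animals. The deviations of same-numbered mice correlated at −0.039 to 0.197, and 1 of 5 MLPKO mice correlated best with its own number. The replicate block called 0 of the 29 genes and 281 of all genes.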
